A study of Homo sapiens with 39 samples.

Results

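The genes described here supply cells with amino acids or respond when proteins misfold in the endoplasmic reticulum (ER). They were a listed set of 36 genes, of which 35 were measured by a probe set that names that gene alone, out of 18132 genes tested. GPT2 was not analysed here, because no probe set named it alone. Where a gene had several such probe sets, the one with the highest mean over all arrays stood for it. The 35 comprised 8 stress transcription factors and feedback genes, 8 enzymes of serine, glycine, asparagine and one-carbon metabolism, 7 amino acid transporters, 7 aminoacyl-tRNA synthetases, 4 ER quality control genes and the lipoprotein receptor gene VLDLR.

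The samples were 7 established human acute myeloid leukemia (AML) cell lines, named Sig-M5, OCI-M1, OCI-AML3, NOMO-1, MV-4-11, KG-1a and Kasumi-1. Cells of each line were kept for 24 h with tamibarotene (SY-1425), which activates the retinoic acid receptor alpha, or with its vehicle, DMSO. The drug concentration is given by the labels as 100 nM when added and 50 nM at the end. Every line had 3 tamibarotene arrays. Vehicle arrays numbered 2 in Kasumi-1, in KG-1a and in Sig-M5 and 3 in the others, so that there were 39 arrays. No label says whether replicates came from separate cultures, and p-values then measure only the spread between these samples, which may be technical. Values are normalised intensities on the log2 scale. A response is the mean of the tamibarotene arrays minus the mean of the vehicle arrays, with the standard error (SE) of a limma fit over all arrays. Calls are those with an adjusted p under 0.05 (limma, Benjamini-Hochberg over all genes), and "rose" and "fell" are used only of called genes.

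Cells short of an amino acid activate the kinase GCN2, and cells with unfolded protein in the ER activate the kinase PERK. Both phosphorylate the initiation factor eIF2, which lowers general translation while the mRNA of ATF4 is translated more. ATF4 then binds C/EBP-ATF response elements at genes for amino acid synthesis, uptake and tRNA charging. A separate branch, through IRE1 and the transcription factor XBP1, and another through ATF6, induce ER chaperones by way of ER stress response elements. In myeloid leukemia these genes are of interest because leukemic cells depend on imported or newly made amino acids.

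Short DNA elements of these pathways were looked for in the RefSeq promoter windows of GRCh38.p14, from 250 bases before to 50 bases after each gene's start, on both strands. A window was found for 31 of the 35 measured genes. The C/EBP-ATF response element TGATGNAA was in a window of 11 of the 31 (35.5%), against 4.46% of 27305 genes. The 11 were ATF3, CHAC1, ASNS, SLC3A2, SLC7A1, SLC1A5, AARS1, GARS1, NARS1, MARS1 and HERPUD1. The ER stress response element, CCAAT and CCACG with 9 bases between them, was in HSPA5 and XBP1 (6.45%), against 0.0916% of genes. The element TGACGTG was in none of the 31, against 2.40% of genes, which says only that these letters are not in these windows. A match is a description of the letters and not of a site in use, and the motifs searched do not overlap each other in the windows shown. The 250 bases before the start follow for ASNS at chr7:97872409-97872658 (minus strand) and HERPUD1 at chr16:56931892-56932141 (plus strand), with the C/EBP-ATF element in capitals, and for XBP1 at chr22:28800570-28800819 (minus strand) and HSPA5 at chr9:125241344-125241593 (minus strand), with the ER stress element in capitals. ASNS is shown because it fell in 3 lines, XBP1 and HERPUD1 because they rose in MV-4-11, and HSPA5 because it carries the same element as XBP1 and was called in no line.
ASNS: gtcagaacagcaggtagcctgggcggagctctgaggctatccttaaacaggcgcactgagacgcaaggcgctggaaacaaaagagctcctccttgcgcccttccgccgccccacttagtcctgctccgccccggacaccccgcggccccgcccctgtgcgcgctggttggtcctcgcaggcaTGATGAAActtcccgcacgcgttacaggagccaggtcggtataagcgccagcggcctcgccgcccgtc
HERPUD1: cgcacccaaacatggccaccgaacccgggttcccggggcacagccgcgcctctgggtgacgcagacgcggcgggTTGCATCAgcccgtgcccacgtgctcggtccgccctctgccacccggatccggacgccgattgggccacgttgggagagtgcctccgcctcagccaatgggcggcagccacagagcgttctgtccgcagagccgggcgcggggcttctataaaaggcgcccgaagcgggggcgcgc
XBP1: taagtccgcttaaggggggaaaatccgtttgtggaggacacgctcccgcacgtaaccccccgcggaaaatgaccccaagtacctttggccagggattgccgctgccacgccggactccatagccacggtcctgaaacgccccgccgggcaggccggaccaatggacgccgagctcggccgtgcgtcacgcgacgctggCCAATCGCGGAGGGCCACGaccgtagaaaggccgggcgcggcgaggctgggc
HSPA5: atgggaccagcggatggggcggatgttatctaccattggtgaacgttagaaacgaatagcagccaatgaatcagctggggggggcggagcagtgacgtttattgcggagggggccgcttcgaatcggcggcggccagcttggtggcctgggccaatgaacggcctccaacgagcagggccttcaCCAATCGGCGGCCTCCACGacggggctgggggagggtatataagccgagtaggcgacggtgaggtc

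The labelled cell type was checked on blood cell markers in the vehicle arrays. The mean log2 value of MPO, the neutrophil granule peroxidase, was 12.90 to 13.87 in Kasumi-1, NOMO-1 and Sig-M5 and 4.03 to 6.52 in the other lines. LYZ, lysozyme, was 9.84 or higher in 5 lines, 7.87 in Kasumi-1 and 5.14 in KG-1a, where CD34 was 9.67. OCI-M1 carried the erythroid genes KLF1 and ALAS2 at 11.32 and 9.02, against at most 7.01 and 5.60 in the other lines, and Kasumi-1 carried EPCAM at 9.22 against at most 3.34. The pan-leukocyte marker PTPRC (CD45) was at 5.11 in Kasumi-1 and 5.16 in MV-4-11, against 7.05 to 8.57 in the other lines. The myeloid factor SPI1 was at 4.85 in KG-1a and 5.32 in OCI-M1, against 5.81 to 6.89. PTPRC and SPI1 were thus low in those lines for cells labelled as myeloid, but other markers of the myeloid list were mixed there. CSF3R and KIT were highest in Kasumi-1 (9.38 and 10.73), ANPEP was highest in KG-1a (10.20), and KIT was at 9.82 in OCI-M1. In the other direction, KIT was at 2.71 in KG-1a and 4.54 in MV-4-11, and CSF3R was lowest in OCI-M1. The T and B cell markers CD3E, CD2, CD79A and MS4A1 had no mean above 6.10 in any line. RNA integrity stood apart in 3 vehicle arrays. The beta-actin 3' minus 5' value, which is larger in more degraded RNA, stood at 1.18 for Kasumi-1 vehicle replicate 2 and at 0.81 and 1.89 for both vehicle arrays of Sig-M5, while the other 36 arrays ran from -0.02 to 0.56. The treated Sig-M5 and Kasumi-1 arrays had 0.31 to 0.34 and 0.20 to 0.22. Results in Sig-M5 and Kasumi-1 are therefore given with values that bear on this.

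In OCI-AML3, 10 of the 35 genes fell and 2 rose. Over all genes tested, 6.36% fell and 5.50% rose in that line. The 10 that fell were ATF4 itself, its feedback inhibitor TRIB3, the enzymes ASNS, PSAT1, SHMT2 and MTHFD2, the paired transporter subunits SLC7A5 and SLC3A2, and the tRNA synthetases GARS1 and MARS1. WARS1 and DDIT4 rose. The median response of the 35 was -0.21, against -0.03 over all genes. In bulk RNA, a change in the share of cells that express a gene and a change of its RNA per cell cannot be told apart. The call of MTHFD2 was lost without tamibarotene replicate 2 (-0.24, adjusted p = 0.112, limma), and no setting tried removed the call of any of the other 11.

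ATF4, the transcription factor of the response, had a mean of 12.39 ± 0.05 (SD, n = 3) with vehicle and 11.92 ± 0.03 (SD, n = 3) with tamibarotene in OCI-AML3. Its response was -0.47 ± 0.06 (SE), a 1.38-fold lower level (adjusted p = 4.46e-07, limma). Its single probe set has the suffix that the manufacturer gives to sets that can share probes with other transcripts. TRIB3, a pseudokinase that ATF4 induces and that restrains it, was at 8.86, 9.03 and 8.77 on the OCI-AML3 vehicle arrays. It was at 8.03, 7.89 and 7.91 on the tamibarotene arrays, all below the lowest vehicle array. The response was -0.94 ± 0.10 (1.92-fold lower, adjusted p = 2.80e-08, limma).

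Among the enzymes, ASNS, which makes asparagine from aspartate, lay at 10.52, 10.58 and 10.54 with vehicle and at 9.86, 9.81 and 9.82 with tamibarotene in OCI-AML3. Every treated array lay below every vehicle array, with little spread within either arm, and the response was -0.72 ± 0.08 (1.64-fold lower, adjusted p = 2.78e-08, limma). PSAT1, the transaminase of serine synthesis, fell by 0.64 on the log2 scale. SHMT2, the mitochondrial enzyme that turns serine into glycine, fell by 0.53, and MTHFD2, the mitochondrial folate enzyme that acts after it, fell by 0.31. PHGDH, which commits carbon to serine synthesis, had a response of -0.53 ± 0.21 that was not called, and PSPH, the last step of that pathway, was at 0.02.

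SLC7A5 and SLC3A2 encode the light and heavy chain of the LAT1 transporter, which imports leucine and other large neutral amino acids. In OCI-AML3, SLC7A5 was at 10.10, 10.18 and 10.10 with vehicle. With tamibarotene it was at 8.72, 9.32 and 9.05, lower on every array and more widely spread. Its response was -1.10 ± 0.19 (2.14-fold lower, adjusted p = 1.09e-04, limma), the largest fall among the 35 genes in that line. SLC3A2 fell by 0.65 on the log2 scale. SLC7A1, SLC1A5 and SLC38A2, which carry cationic amino acids, glutamine and other neutral amino acids, and small neutral amino acids, had responses of -0.35, -0.30 and -0.00 and were not called.

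Of the 7 tRNA synthetases, which join an amino acid to its tRNA, 2 fell and 1 rose in OCI-AML3, and their median response was -0.21. GARS1 (glycine) fell by 0.57 and MARS1 (methionine) by 0.47 on the log2 scale. WARS1 (tryptophan), which interferon also induces, was at 11.04, 11.10 and 10.98 with vehicle. It rose to 12.13, 12.12 and 12.24 with tamibarotene, above every vehicle array, with a response of 1.13 ± 0.08 (2.19-fold, adjusted p = 1.17e-12, limma). DDIT4, an inhibitor of mTORC1 that stress and glucocorticoids induce, was at 7.14, 7.32 and 6.88 with vehicle and rose to 7.82, 7.87 and 7.78 (0.71 ± 0.14, adjusted p = 6.40e-04, limma). The ER genes HSPA5, HERPUD1, XBP1 and DNAJB9 had responses of -0.09 to 0.05, and none was called.

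**Figure D1:**
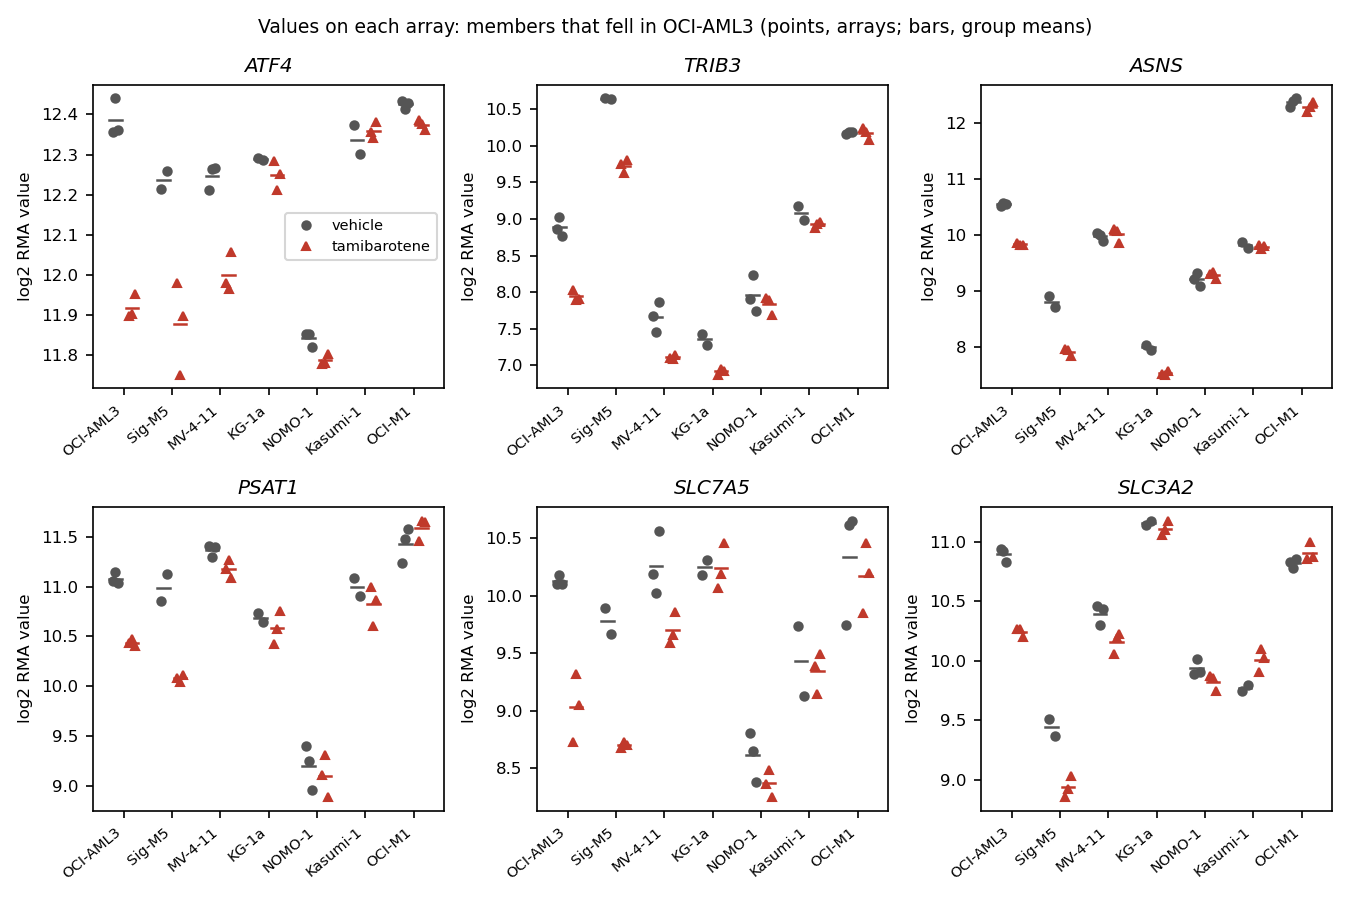
Log2 values on each array (y axis) of ATF4, TRIB3, ASNS, PSAT1, SLC7A5 and SLC3A2 in the 7 lines (x axis), with vehicle as grey points, tamibarotene as red triangles and group means as bars; each panel has its own axis, which does not start at 0. In OCI-AML3 and Sig-M5 the arms are apart for all 6 genes, which were drawn because they fell (30.7% and 47.9% of all genes do not overlap there), while in OCI-M1 TRIB3 and ASNS lie high with both arms together.

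The OCI-AML3 response was next compared with the average response of the remaining 6 lines. It differed for 13 of the 35 genes, where 7.83% of all genes differed. Lower than that average were the responses of SLC7A5, TRIB3, SLC3A2, ASNS, SHMT2, XBP1, PSAT1, MTHFD2, ATF4, MARS1 and GARS1. A single line could lie lower still, as Sig-M5 did for ASNS (-0.90) and PSAT1 (-0.91). The largest gap was that of SLC7A5, at -0.74 ± 0.21 (adjusted p = 0.0253, limma), and the smallest p was that of SLC3A2, at -0.55 ± 0.08 (adjusted p = 8.37e-06, limma). WARS1 (0.44 ± 0.08) and SESN2 (0.46 ± 0.12), a stress-induced leucine sensor that restrains mTORC1, had responses above the average of the other 6 lines. SESN2 and XBP1 were not called in OCI-AML3 itself.

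In Sig-M5, 17 of the 35 genes fell and 6 rose. Over all genes 18.4% fell and 8.50% rose there, and the median responses were -0.28 for the 35 and -0.10 for all genes. ATF5, a relative of ATF4 that ATF4 induces, fell most, followed by PHGDH, SLC7A5, TRIB3, PSAT1 and ASNS. The other falls were those of GARS1, SARS1, PSPH, PCK2, SLC3A2, ALDH1L2, ATF3, SESN2, AARS1, ATF4 and MARS1. WARS1, DDIT3, DNAJB9, XBP1, SLC7A11 and DDIT4 rose. Both vehicle arrays of this line had the high actin 3' minus 5' values given above. With that value as a covariate, 14 genes were called, 1 up and 13 down, and over all genes 622 rose and 1083 fell in place of 1541 and 3333.

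ATF5 was at 9.79 and 9.84 on the Sig-M5 vehicle arrays and at 7.99, 7.87 and 8.03 with tamibarotene. The arms did not overlap, and the response was -1.85 ± 0.19 (3.60-fold lower, adjusted p = 1.03e-08, limma). All 4 of its probe sets lay between -2.09 and -1.62. PHGDH was at 10.62 and 10.78 with vehicle and at 9.72, 9.50 and 9.59 with tamibarotene (-1.10 ± 0.23, adjusted p = 5.42e-04, limma). Both genes kept their calls in Sig-M5 under every setting tried.

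SLC7A5 in Sig-M5 was at 9.89 and 9.67 with vehicle and at 8.67, 8.73 and 8.70 with tamibarotene, and TRIB3 was at 10.65 and 10.63 against 9.74, 9.63 and 9.81. Both were lower on every treated array, with responses of -1.08 ± 0.22 (adjusted p = 3.23e-04, limma) and -0.91 ± 0.11 (adjusted p = 3.62e-07, limma). The second probe set of each gene, with a lower mean, gave 0.01 and 0.02 in this line, and the SLC7A5 call was lost with the actin covariate (-0.61, adjusted p = 0.232, limma). The 4 probe sets of ASNS gave -1.07 to -0.48 and the 2 of GARS1 gave -0.77 and -0.61. PSAT1 is a case in the other direction: its main probe set gave -0.91 and another gave 0.71, and the mean of all its probe sets was -0.14 (adjusted p = 0.411, limma).

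WARS1 rose in Sig-M5 from 9.56 and 9.35 to 10.94, 10.99 and 10.85 (1.47 ± 0.09, 2.76-fold, adjusted p = 4.41e-14, limma), and its 4 probe sets gave 0.64 to 3.61. DDIT3, the pro-apoptotic factor CHOP, was called at 0.91 ± 0.19 (adjusted p = 3.84e-04, limma) and DNAJB9, a co-chaperone of the ER, at 0.88 ± 0.23. XBP1 rose by 0.51, SLC7A11, the cystine transporter, by 0.47, and DDIT4 by 0.44. With the actin covariate the calls of DDIT3, DNAJB9, XBP1, SLC7A11 and DDIT4 were lost, and DDIT4 stood at -0.01 (adjusted p = 0.983, limma). Besides SLC7A5, the falls of PCK2 (-0.42), PSPH (-0.13), SESN2 (-0.06) and ATF3 (-0.55) also lost their calls with that covariate. PCK2 was not called by the mean of all its probe sets either (-0.20). Without vehicle replicate 2, which had the highest actin value of all arrays, DNAJB9 (0.65), XBP1 (0.28), SLC7A11 (0.33) and DDIT4 (0.04) were not called, nor were the falls of PSPH (-0.22), ATF3 (-0.37) and SESN2 (-0.32). Without vehicle replicate 1, ALDH1L2 (-0.28) and MARS1 (-0.21) were not called. Single tamibarotene arrays also decided calls: ALDH1L2 was not called without replicate 1 or 3, ATF3 and MARS1 without replicate 3, SESN2 without replicate 2, and DDIT4 without replicate 1 or 3.

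Of the 29 measured genes with several probe sets, 13 had all of them on the same side of 0 in Sig-M5, against 14 to 22 in the other lines. The median distance between the highest and lowest probe set of a gene was 0.66 in Sig-M5 and 0.35 in Kasumi-1, against 0.13 to 0.17 in the other 5 lines. MARS1, MTHFD2, PSAT1, PSPH and SLC7A1 had probe sets called in opposite directions in Sig-M5, and no gene of the set had them in another line. The HSPA5 response was 0.18 by its main probe set and up to 1.95 by others, and that of SLC38A2 was 0.69 and up to 2.91. The part of RNA integrity in the Sig-M5 results was not tested beyond these values.

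**Figure D2:**
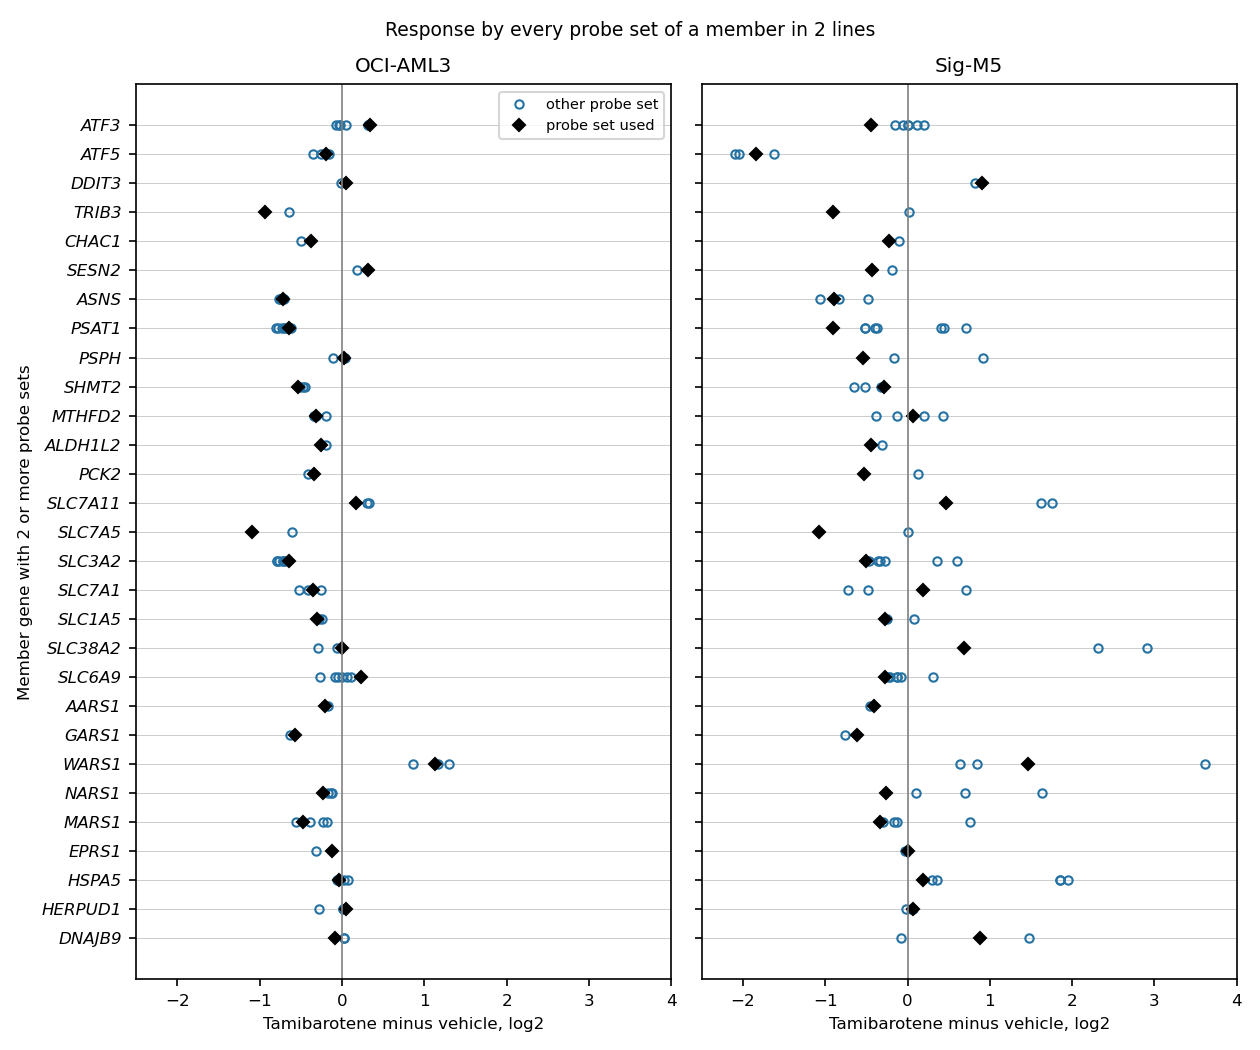
Response in log2 (x axis) of every probe set of the measured genes with 2 or more (y axis), in OCI-AML3 on the left and Sig-M5 on the right; black diamonds mark the probe set used and open circles the others. The circles lie close to the diamonds in OCI-AML3 and spread on both sides of 0 in Sig-M5, where ATF5, ASNS and GARS1 stay below 0 throughout.

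ATF4, TRIB3, ASNS, PSAT1, SLC7A5, SLC3A2, GARS1 and MARS1 fell in both OCI-AML3 and Sig-M5. These 8 are 80% of the 10 that fell in OCI-AML3 and 47.1% of the 17 that fell in Sig-M5. Over all genes, 543 fell in both, 2.99% of those tested, which is 47.1% of those that fell in OCI-AML3 and 16.3% of those that fell in Sig-M5. In Sig-M5 the 8 calls are those of the probe set used. SLC3A2 had probe sets from -0.50 to 0.60 there, and the mean of all of them was -0.14 (adjusted p = 0.415, limma). MARS1 and PSAT1 had probe sets called in opposite directions, and the second ones of SLC7A5 and TRIB3 gave 0.01 and 0.02. ASNS and GARS1 lay below 0 by all their probe sets, and ATF4 has 1. SHMT2 and MTHFD2 were called in OCI-AML3 and stood at -0.28 and 0.07 in Sig-M5. ATF5 and PHGDH were called in Sig-M5 and stood at -0.20 and -0.53 in OCI-AML3. Set against the mean of the other 6 lines, the Sig-M5 response differed for 19 of the 35 genes. It was lower for 15 and higher for 4, where 22.9% of all genes differed.

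In MV-4-11, 4 of the 35 genes rose and 5 fell, where 4.32% of all genes rose and 3.40% fell. The rises were those of DDIT4, XBP1, WARS1 and HERPUD1, and the falls those of VLDLR, PHGDH, TRIB3, ATF4 and SLC3A2. DDIT4 was at 5.99, 5.58 and 6.24 with vehicle and rose to 8.05, 8.14 and 8.08, far above every vehicle array (2.15 ± 0.14, 4.45-fold, adjusted p = 7.31e-13, limma). XBP1, the transcription factor of the IRE1 branch, rose from 11.53, 11.60 and 11.61 to 12.68, 12.75 and 12.64 (1.11 ± 0.11, 2.17-fold, adjusted p = 1.95e-09, limma). HERPUD1, a component of ER-associated degradation, rose by 0.56 ± 0.09 (adjusted p = 2.54e-05, limma), with its 4 probe sets at 0.55 to 0.73. The chaperone HSPA5 stood at 0.05 and DNAJB9 at 0.01, and neither was called. WARS1 went from 10.76, 10.67 and 10.71 to 11.31, 11.44 and 11.41, a rise of 0.67 ± 0.08.

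VLDLR, a receptor for lipoproteins and reelin whose gene ATF4 can induce under stress, was at 7.58, 7.72 and 7.60 in MV-4-11 with vehicle and at 6.61, 6.72 and 6.97 with tamibarotene. The response was -0.87 ± 0.16 (1.83-fold lower, adjusted p = 1.81e-04, limma), and VLDLR was called in no other line. PHGDH was at 10.11, 9.86 and 10.18 against 9.40, 9.38 and 9.38 (-0.66 ± 0.21, adjusted p = 0.0436, limma). That call was lost when any single array of the line other than vehicle replicate 2 was left out (adjusted p = 0.103 to 0.166, limma), with the value between -0.67 and -0.60. TRIB3 fell by 0.55, ATF4 by 0.25 and SLC3A2 by 0.24 on the log2 scale. The last was not called on leaving out vehicle replicate 1, vehicle replicate 3, tamibarotene replicate 1 or tamibarotene replicate 2 (-0.25 to -0.19), and with replicates as a block ATF4, SLC3A2 and PHGDH had adjusted p = 0.0508, 0.0912 and 0.107 (limma). Against the mean of the other 6 lines, the responses of DDIT4 (1.57), XBP1 (0.93), HERPUD1 (0.60) and ASNS (0.39) were higher in MV-4-11. That of VLDLR (-0.81) was lower. ASNS itself was not called in MV-4-11 (0.04).

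In KG-1a, 2 of the 35 genes rose and 3 fell, where 1.21% of all genes rose and 1.88% fell. DDIT4 was at 9.41 and 9.40 with vehicle and rose to 11.00, 11.16 and 11.16 (1.70 ± 0.16, 3.25-fold, adjusted p = 1.03e-08, limma), and it kept this call when any array was left out. ASNS was at 8.03 and 7.94 against 7.51, 7.50 and 7.57 (-0.46 ± 0.09, adjusted p = 9.76e-04, limma), and was not called without vehicle replicate 1 (-0.41, adjusted p = 0.0526, limma). SESN2 was at 6.03 and 5.99 against 5.51, 5.41 and 5.50 (-0.54 ± 0.12), TRIB3 at 7.44 and 7.28 against 6.87, 6.96 and 6.93 (-0.44 ± 0.11), and MTHFD2 at 11.44 and 11.33 against 11.73, 11.78 and 11.70 (0.35 ± 0.09). The arms were apart in each, as they were for 39.1% of all genes in KG-1a, and the SESN2 call was lost without either vehicle array, and those of TRIB3 and MTHFD2 without any single array of the line. MTHFD2 was the 1 gene of the 35 called in opposite directions in different lines, as were 3.07% of all genes.

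NOMO-1, Kasumi-1 and OCI-M1 had the fewest calls. In NOMO-1, WARS1 rose from 10.76, 10.80 and 10.55 to 11.56, 11.55 and 11.52 (0.84 ± 0.08, adjusted p = 3.47e-09, limma). DDIT4 rose from 7.82, 7.82 and 7.58 to 8.31, 8.43 and 8.23 (0.58 ± 0.14, adjusted p = 0.0162, limma), a call lost on leaving out vehicle replicate 3 or either of tamibarotene replicates 1 and 2 (0.50 to 0.59). These 2 rises stood beside 2.77% of all genes rising, and no gene of the set fell in NOMO-1 (limma; 2 had an unadjusted p under 0.05), where 0.711% of all genes fell. With replicates as a block, 3 genes of the set rose and 2 fell in this line. Over all genes, 607 rose and 395 fell with that block, in place of 502 and 129.

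In OCI-M1, WARS1 alone was called, from 11.61, 11.63 and 11.62 to 11.98, 12.12 and 12.06 (0.43 ± 0.08, adjusted p = 0.00133, limma), where 0.700% of all genes rose. None of the 35 fell there (limma; 1 had an unadjusted p under 0.05), where 0.386% of all genes did. In Kasumi-1, WARS1 was at 9.70 and 9.94 with vehicle and at 10.26, 10.39 and 10.22 with tamibarotene (0.47 ± 0.09), and XBP1 at 11.46 and 12.05 against 12.21, 12.28 and 12.11 (0.44 ± 0.12). GARS1 was at 11.45 and 11.32 against 11.06, 10.76 and 10.93 (-0.46 ± 0.10). These 2 rises and 1 fall stood beside 0.480% and 2.36% of all genes. Without vehicle replicate 2, the array with the actin value of 1.18, WARS1 was at 0.35, XBP1 at 0.15 and GARS1 at -0.40, with 1 vehicle array left. With the actin covariate none of these 3 was called, at 0.37, 0.21 and -0.40. Over all genes, 8 rose and 20 fell in Kasumi-1 with that covariate. Without tamibarotene replicate 2, XBP1 (0.40) and GARS1 (-0.39) were not called.

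**Figure D3:**
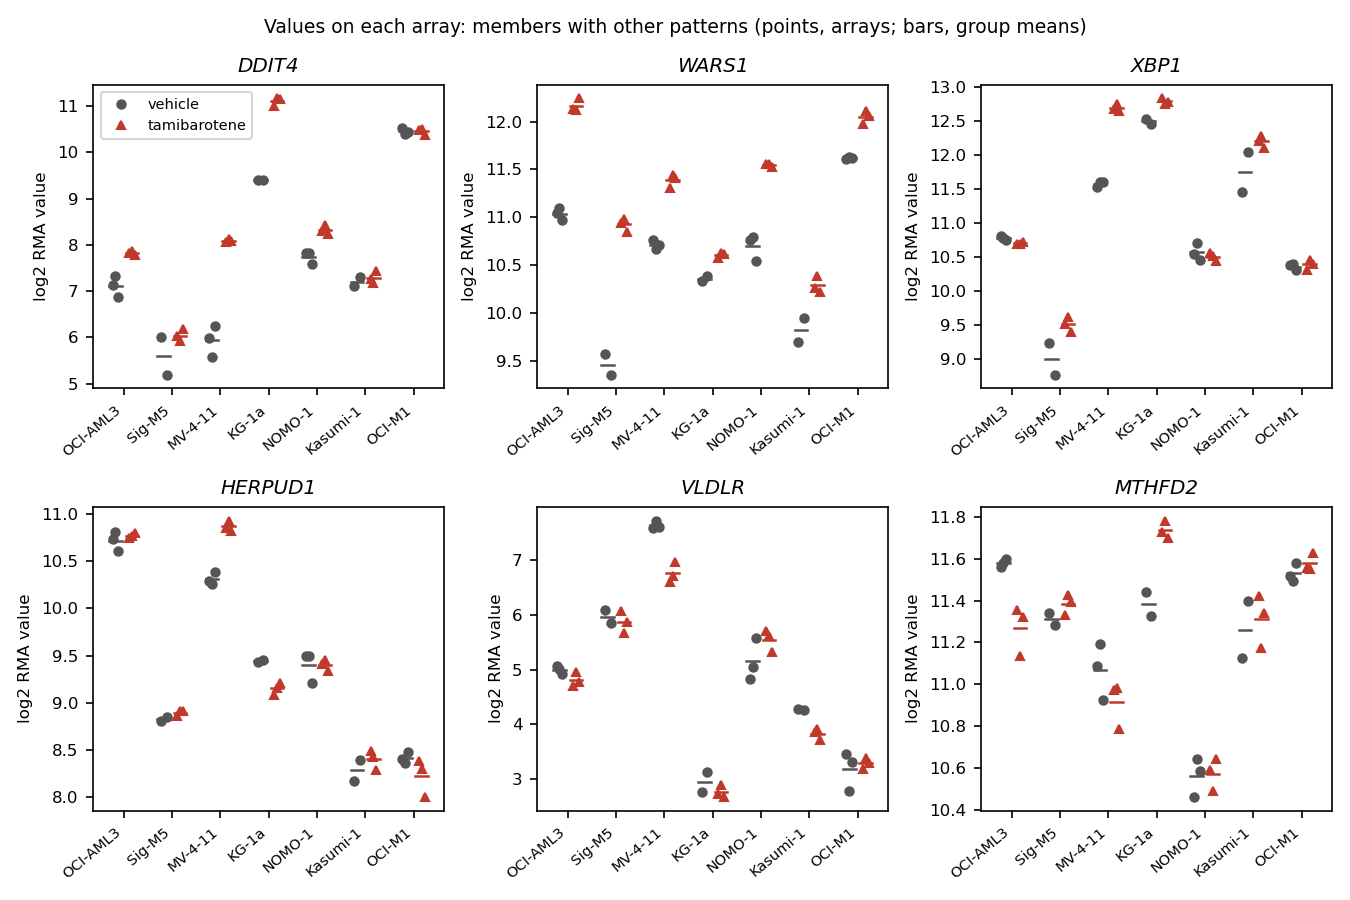
Log2 values on each array (y axis) of DDIT4, WARS1, XBP1, HERPUD1, VLDLR and MTHFD2 in the 7 lines (x axis), with vehicle as grey points, tamibarotene as red triangles and group means as bars; each panel has its own axis, which does not start at 0. WARS1 is higher with tamibarotene in all 7 lines by the probe set drawn, DDIT4 stands far apart in MV-4-11 and KG-1a, and VLDLR fell in MV-4-11 alone.

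Across the lines, WARS1 rose in 6, as did 0.0938% of all genes in at least 6 lines. In KG-1a, the remaining line, its response was 0.25 and was not called. DDIT4 rose in 5 lines, as did 0.259% of all genes in at least 5. It stood at 0.09 in Kasumi-1 and at -0.00 in OCI-M1. The vehicle mean of DDIT4 was 7.20 in Kasumi-1, and its vehicle values in OCI-M1 were 10.52, 10.39 and 10.45. TRIB3 fell in 4 lines, as did 0.298% of all genes in at least 4. ATF4, ASNS, SLC3A2 and GARS1 each fell in 3, as did 1.48% of all genes in at least 3. These counts include calls lost in some settings. They are those of WARS1 in Kasumi-1 and OCI-M1, DDIT4 in Sig-M5 and NOMO-1, TRIB3 in KG-1a, and some of the genes that fell in 3 lines. CHAC1, a glutathione-degrading enzyme, SLC7A1, SLC1A5, SLC38A2, the glycine transporter SLC6A9, NARS1, EPRS1 and HSPA5 were called in no line, as were 61.5% of all genes. For EPRS1, the SE of a response was the largest of the set at 0.50 to 0.56, and its responses ran from -0.98 in NOMO-1 to 1.08 in Kasumi-1.

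**Figure D4:**
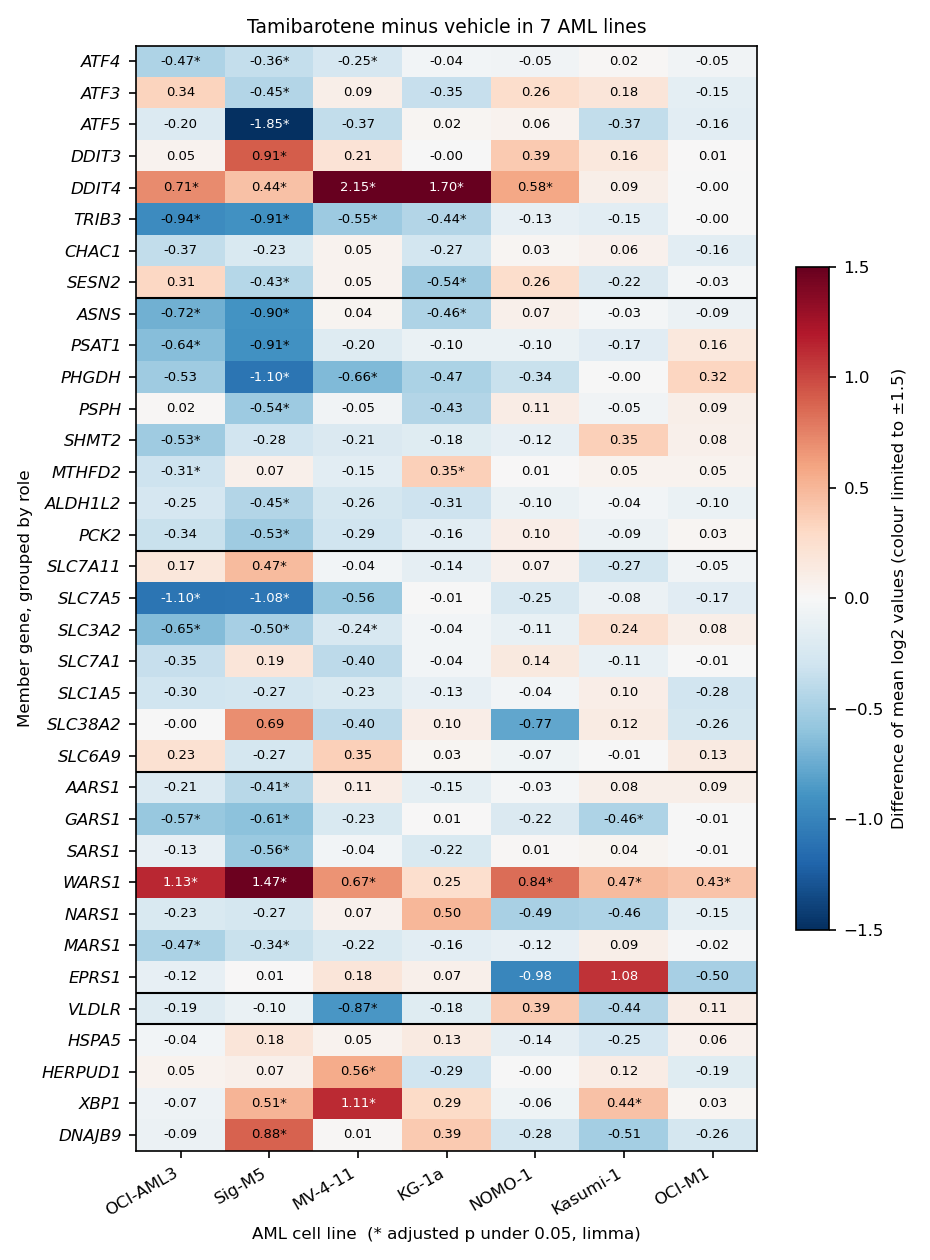
Tamibarotene minus vehicle in log2 (colour and printed number, colour limited to 1.5 in either direction) for the 35 measured genes (y axis, grouped by role) in the 7 lines (x axis), with an asterisk at an adjusted p under 0.05 in limma. The OCI-AML3 and Sig-M5 columns hold 10 and 17 falls, the WARS1 row is above 0 in every line, and the OCI-M1 column holds a single call.

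In the unweighted mean of the 7 responses, 4 of the 35 genes rose and 15 fell, where 6.71% of all genes rose and 12.4% fell. The median mean response was -0.13 for the 35 and -0.02 for all genes. DDIT4 (0.81 ± 0.06), WARS1 (0.75 ± 0.03), XBP1 (0.32 ± 0.04) and DDIT3 (0.25 ± 0.07) rose. The largest falls were those of SLC7A5 (-0.46 ± 0.08), TRIB3 (-0.45 ± 0.04), ATF5 (-0.41 ± 0.07), PHGDH (-0.40 ± 0.08), GARS1 and ASNS (both -0.30), and PSAT1 (-0.28 ± 0.05). The mean falls of ALDH1L2 (-0.22 ± 0.05), a mitochondrial formyltetrahydrofolate dehydrogenase, TRIB3 and SLC7A5 had the same sign in all 7 lines, as did 1.91% of all genes. So did the mean rise of WARS1, as did 0.717%. This holds for the probe sets used. Others reached 0.36 for SLC7A5 and 0.30 for TRIB3 in Kasumi-1, 0.13 for ALDH1L2 in NOMO-1 and -0.13 for WARS1 in MV-4-11. ALDH1L2 also had a low mean of 4.29 over all arrays. PCK2, the mitochondrial PEPCK, MARS1, SLC3A2, ATF4, VLDLR, SARS1 and SHMT2 also fell, by 0.13 to 0.18. Without Kasumi-1 and Sig-M5, ATF5 (-0.13), DDIT3 (0.13), PCK2 (-0.13), SARS1 (-0.08) and VLDLR (-0.15) were not called in the mean. SHMT2 and VLDLR also lost the call for 20 and 19 of the 39 arrays when each was left out alone, with values of -0.17 to -0.08 and -0.21 to -0.15.

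Whether the 7 responses differed from each other was tested by an F test. They did for 24 of the 35 genes, where 27.4% of all genes differed. The 24 comprised 6 of 8 stress factors, 6 of 8 enzymes, 3 of 7 transporters, 5 of 7 tRNA synthetases, VLDLR and 3 of 4 ER genes. ALDH1L2 (adjusted p = 0.636, limma) and PCK2 (adjusted p = 0.0528, limma) had a mean fall without a difference between lines that passed the test. DDIT3 (adjusted p = 0.0559, limma) had a mean rise without one. Comparing each line's response with the average of the others gave 56 calls over the 7 lines, at 7.41% of all genes in the same comparisons. Besides the 13 in OCI-AML3 and 19 in Sig-M5, these were 6 in OCI-M1 (3.50% of all genes), 5 in Kasumi-1 (5.36%), 5 in KG-1a (4.90%), 5 in MV-4-11 (4.79%) and 3 in NOMO-1 (2.61%). In Kasumi-1 the responses of SHMT2 (0.56), SLC3A2 (0.48) and ASNS (0.31) were above the average of the others. Those of DDIT4 (-0.84) and WARS1 (-0.33) were below it. In KG-1a those of DDIT4 (1.04) and MTHFD2 (0.40) were above, and those of WARS1 (-0.59), SESN2 (-0.53) and HERPUD1 (-0.40) below. In NOMO-1 those of VLDLR (0.67) and ASNS (0.43) were above and that of XBP1 (-0.45) was below. In OCI-M1 the DDIT4 (-0.95) and WARS1 (-0.38) responses were below that average. The TRIB3 (0.52), PSAT1 (0.51), PHGDH (0.84) and SLC3A2 (0.30) responses were above it. A gap from the average does not place a line beyond each of the others: SLC3A2 stood at 0.08 in OCI-M1 and at 0.24 in Kasumi-1. The line's own response could also lie near 0 and be uncalled, as for TRIB3 in OCI-M1 (-0.00) and ASNS in NOMO-1 (0.07). PHGDH was low in OCI-M1 with overlapping arms, at 4.76 ± 0.55 with vehicle and 5.09 ± 0.65 with tamibarotene (SD, n = 3 each). Its own response there, 0.32, was not called.

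Lists of related genes that were not in the set were counted in the same fit. Of 12 other cytosolic tRNA synthetases measured, 5 fell in OCI-AML3, 7 in Sig-M5 and 7 in the mean, and in each of these 0 rose, also at an unadjusted p under 0.05 (limma). Over all genes, 6.36% fell in OCI-AML3, 18.4% in Sig-M5 and 12.4% in the mean. FARSB (phenylalanine) fell by 0.63 and CARS1 (cysteine) by 0.56 in OCI-AML3, and CARS1 fell by 0.99 and VARS1 (valine) by 0.73 in Sig-M5. QARS1 (glutamine) fell by 0.35 in KG-1a. The median response of the list was -0.31 in OCI-AML3 and -0.34 in Sig-M5.

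Of 26 other reported ATF4 targets, 7 fell and 2 rose in OCI-AML3, 8 fell and 3 rose in Sig-M5, and 8 fell and 3 rose in the mean. The shares of all genes that fell and rose were 6.36% and 5.50% in OCI-AML3, 18.4% and 8.50% in Sig-M5, and 12.4% and 6.71% in the mean, so the rises were near the background. In OCI-AML3 the largest were BCAT1, a branched-chain transaminase (-1.01 ± 0.13), EIF4EBP1, the translation repressor 4E-BP1 (-0.96 ± 0.06), the growth factor gene VEGFA (-0.92 ± 0.12) and MTHFD1L, a mitochondrial folate enzyme (-0.80 ± 0.10). VEGFA also fell in Sig-M5 (-1.44 ± 0.13). CEBPB, a transcription factor of myeloid cells, went the other way, with rises of 1.12 in MV-4-11, 0.94 in Sig-M5, 0.72 in KG-1a and 0.61 in NOMO-1. The neutral amino acid transporter gene SLC1A4 fell by 1.12 in KG-1a.

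Of 24 other ER chaperones and unfolded protein response targets, 2 rose and 1 fell in OCI-AML3, 4 rose and 1 fell in Sig-M5, 1 rose and 3 fell in NOMO-1, and 1 rose and 2 fell in MV-4-11. Of all genes, 5.50% rose and 6.36% fell in OCI-AML3, 8.50% and 18.4% in Sig-M5, 2.77% and 0.711% in NOMO-1, and 4.32% and 3.40% in MV-4-11, so the OCI-AML3 counts were near the background. CREB3L2, an ER-anchored transcription factor, rose in all 4 of these lines, by 1.35 in OCI-AML3, 1.28 in MV-4-11, 0.77 in Sig-M5 and 0.57 in NOMO-1. EDEM1, which directs misfolded glycoproteins to degradation, rose by 1.51 ± 0.13 in OCI-AML3 and by 0.62 in Sig-M5. The chaperone partner SDF2L1 and the secreted ER protein MANF fell in MV-4-11 (-0.24 and -0.22) and in NOMO-1 (-0.36 and -0.23), and SDF2L1 fell by 0.31 in OCI-AML3. Of 17 sensors and regulators of eIF2, EIF2B3 (-0.79 ± 0.09) and EIF2S1 (-0.66 ± 0.19), subunits of eIF2B and eIF2, fell in OCI-AML3, where 6.36% of all genes fell. In Sig-M5, 6 of the 17 fell, EIF2B3 among them (-0.80 ± 0.11), and 2 rose, where 18.4% and 8.50% of all genes did. EIF2B1, another subunit of eIF2B, rose in 1 of the 7 lines, and its highest response was 1.61.

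With vehicle, all 35 genes differed between the 7 lines by the F test, where 78.6% of all genes did. Of the 735 comparisons of 2 lines, 508 were called (69.1%), where 43.4% of those over all genes were. The median range of the 7 line means was 1.77 for the 35 and 1.04 for all genes. OCI-M1 had the highest mean for 13 of the 35 genes, and KG-1a and NOMO-1 each had the lowest for 12. Lines next to each other in the order of a gene differed in 76 of 210 comparisons (36.2%), so most neighbours were not told apart by the test.

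PHGDH had the widest range, 5.94 on the log2 scale or 61.3-fold. It was at 10.62 and 10.78 in Sig-M5, 10.77 and 10.53 in Kasumi-1, 10.01, 10.22 and 9.96 in OCI-AML3, and 10.11, 9.86 and 10.18 in MV-4-11. KG-1a was lower, at 8.75 and 8.70, as was NOMO-1 at 8.58, 8.71 and 8.19, and OCI-M1 lay lowest at 5.37, 4.63 and 4.30. Sig-M5 and Kasumi-1 did not differ by the test, nor did OCI-AML3 and MV-4-11, nor KG-1a and NOMO-1, while the steps between these pairs and down to OCI-M1 were called. PSAT1 and PSPH, the next steps of the same pathway, did not follow that order: PSAT1 was highest in OCI-M1 and lowest in NOMO-1 (range 2.23), and PSPH was highest in Kasumi-1 and lowest in Sig-M5 (range 1.59).

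DDIT4 ranged over 4.86, from OCI-M1 at the top to Sig-M5, and VLDLR over 4.69, from MV-4-11 to KG-1a. ASNS ranged over 4.39 (20.9-fold), from a mean of 12.37 in OCI-M1 to 7.99 in KG-1a, and 5 of its 6 steps between neighbouring lines were called. XBP1 ranged over 3.49, from KG-1a to Sig-M5. EPRS1 ranged over 3.77, with Sig-M5 at 10.21 and 9.84, but its arrays within a line were far apart, as at 8.46, 7.03 and 8.80 in OCI-AML3. SLC7A11 had the narrowest range, 0.53: its vehicle values ran from 6.35 on an MV-4-11 array to 7.19 on an OCI-M1 array, and no neighbouring lines differed. SARS1 (0.54) and ATF4 (0.58) were almost as narrow. ATF4 was at 11.82 to 11.85 in NOMO-1 and at 12.21 to 12.44 on the vehicle arrays of every other line, so its 1 called step was the last.

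Each line's vehicle level was set against the mean of the other 6. NOMO-1 was lower for 21 of the 35 genes and higher for 3, where 27.5% of all genes were lower and 19.3% higher. Its lowest were PSAT1 (-1.89), SLC7A5 (-1.42), ATF5 (-1.21), ATF3 (-1.17) and SLC1A5 (-1.07), and it was higher for WARS1, HSPA5 and VLDLR by 0.20 to 0.32. OCI-M1 was higher for 19 and lower for 6, where 22.5% of all genes were higher and 30.4% lower. Its largest excesses were those of DDIT4 (3.29), ASNS (2.98), ATF3 (2.68), TRIB3 (1.58), DDIT3 (1.35) and WARS1 (1.27), and its largest deficits those of PHGDH (-5.02), VLDLR (-1.98) and HERPUD1 (-1.09). KG-1a was lower for 15, with VLDLR (-2.25), ASNS (-2.13), TRIB3 (-1.71) and DNAJB9 (-1.70) at the bottom, and higher for 8, DDIT4 (2.06) and XBP1 (1.82) the most, where 20.1% and 21.5% of all genes were lower and higher. Sig-M5 was higher for 14 and lower for 14, where 28.9% and 28.1% of all genes were, and its vehicle levels rest on the 2 arrays with high actin 3' minus 5' values. In OCI-AML3, 14 were higher and 6 lower (18.2% and 18.3% of all genes), MV-4-11 for 12 and 9 (21.2% and 18.7%) and Kasumi-1 for 10 and 11 (21.9% and 19.5%).

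**Figure D5:**
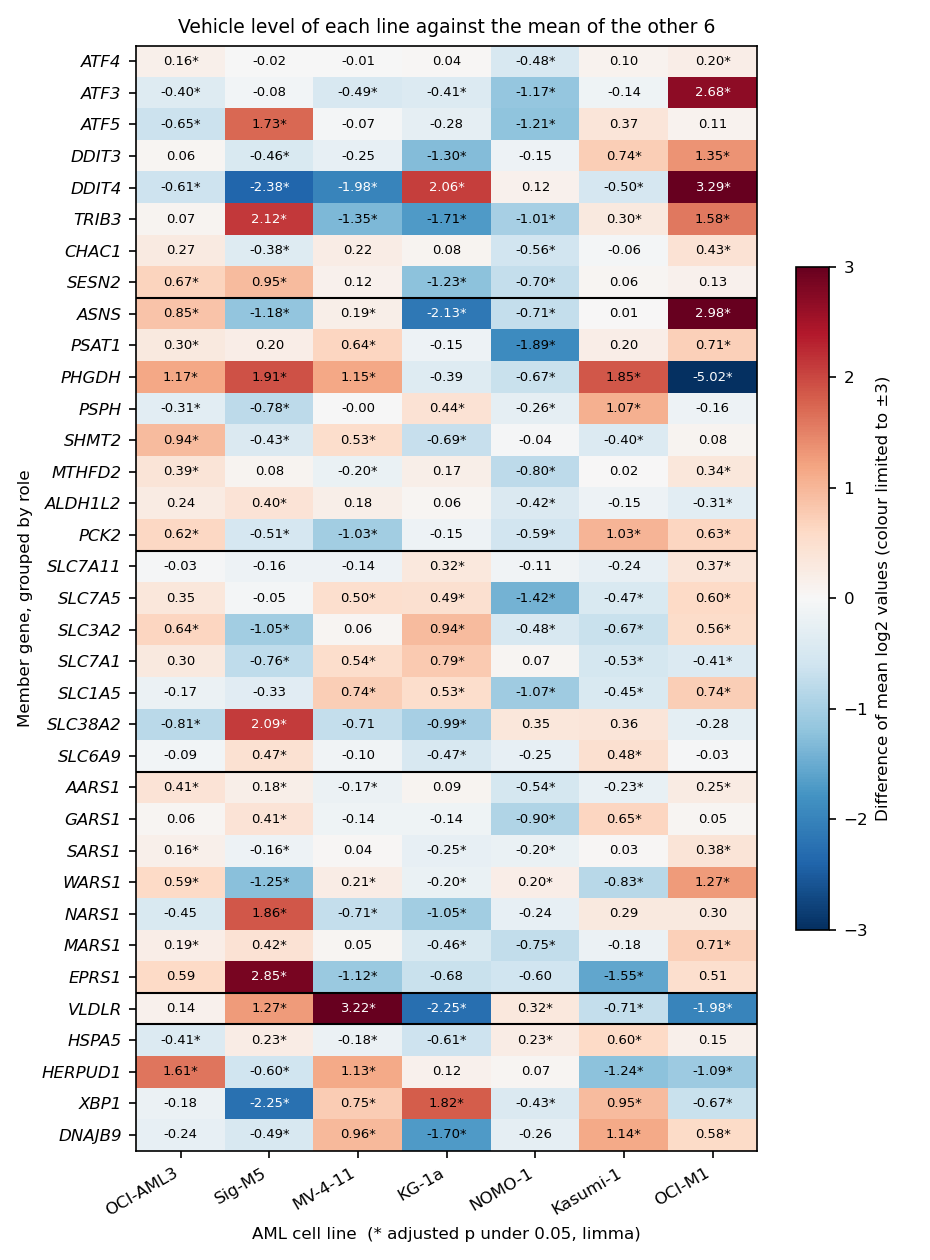
Vehicle level of each line minus the mean of the other 6 lines, in log2 (colour and printed number, colour limited to 3 in either direction), for the 35 measured genes (y axis, grouped by role) in the 7 lines (x axis), with an asterisk at an adjusted p under 0.05 in limma. The NOMO-1 column is lower for 21 genes, and the OCI-M1 column holds the highest DDIT4 and ASNS and the lowest PHGDH.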

How the data were processed

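RNA was hybridised to 39 Affymetrix PrimeView arrays. The deposited values are normalised log2 intensities; per the submitters' processing notes, the authors used affy and RMA, of unstated version. Whether all arrays were normalised together is not given in the sources used here. They ran from 1.68 to 14.43, with array medians of 5.01 to 5.17, and the number of arrays limits the precision. In all, 49395 probe sets have values: 44988 name 1 gene, 1832 several and 2473 none, and 102 are controls. Names come from the platform annotation. The highest correlation of 2 arrays of a group was 0.997, and none was counted as a copy.

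Means of the 14 line-by-arm groups were estimated with limma 3.58.1 in R 4.3.3 (25 residual degrees of freedom, data.table, version 1.17.8), and the fit was tested on simulated data. Figures used Python 3.11.15 and matplotlib 3.10.9. Contrasts were each line's response, their unweighted mean, F tests between lines, 1 line against the other 6, and the same for vehicle levels. The members and lists were chosen with earlier results of these data known. Values per array are given for called genes whose arms do not overlap, at most the 5 largest per line, and for the widest and narrowest vehicle range; up to 4 called genes of each related list and line are named from the largest. Array values of ATF4, EPRS1 and DDIT4 in vehicle were given after they were seen. Same-numbered arrays deviated together at every number (each correlation above 0.1) in OCI-M1 alone, at 0.124 to 0.339. Replicates 2 and 3 reached higher correlations in MV-4-11 (0.66 and 0.45) and NOMO-1 (0.44 and 0.53), and OCI-AML3 had 0.33 and 0.44. Replicate 1 of these lines lay at 0.09, 0.02 and -0.03. Any such pairing comes from the data, not the labels, and the main fit leaves it out. Some genes of the related and marker lists were not analysed here. Alternatives were other probe set choices, filters, normalisation, an actin covariate, array weights, a trended robust prior, a replicate block, single-line fits and leaving out arrays.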

Additional observations from a re-analysis of the deposited data

Results flagged for a closer look

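The tamibarotene responses of 24 genes of the set differed between the 7 lines by limma's moderated F test on 6 degrees of freedom, at adjusted p-values from 3.48e-09 to 0.0441, and 27.4% of all genes tested did so. Among the stress factors and feedback genes, F was 29.3 for DDIT4 (responses of -0.00 to 2.15), 12.7 for TRIB3 (-0.94 to -0.00), 12.3 for ATF5 (-1.85 to 0.06), 9.38 for ATF4 (-0.47 to 0.02), 7.74 for SESN2 and 5.50 for ATF3. Among the enzymes, F was 23.2 for ASNS (-0.90 to 0.07), 8.65 for PSAT1, 5.64 for SHMT2, 5.33 for MTHFD2, 4.41 for PHGDH and 4.27 for PSPH. Among the transporters, F was 17.1 for SLC3A2 (-0.65 to 0.24), 4.96 for SLC7A5 and 3.39 for SLC7A11. Among the tRNA synthetases, F was 26.3 for WARS1 (0.25 to 1.47), 9.38 for SARS1, 6.82 for GARS1, 5.29 for AARS1 and 4.44 for MARS1. F was 6.37 for VLDLR, 15.7 for XBP1 (-0.07 to 1.11), 8.87 for HERPUD1 and 4.40 for DNAJB9. These tests include Sig-M5 and Kasumi-1, whose vehicle arrays have the high actin 3' minus 5' values.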

How the results depend on the processing

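Of 74 called responses of single genes, 38 kept their sign and call under every alternative tried for them and 36 lost the call in at least 1. DDIT4 in Sig-M5 turned to -0.013 with the actin covariate, and PSPH in Sig-M5 turned to 0.072 with the mean of all probe sets, neither called. Array weights, which count deviating arrays less, raised the count of called genes in KG-1a from 5 to 12, in MV-4-11 from 9 to 17 and in OCI-AML3 from 12 to 22, and lowered it in Kasumi-1 from 3 to 0. Over all genes the rises and falls went with them, from 219 and 341 to 977 and 1610 in KG-1a, from 783 and 616 to 1463 and 1789 in MV-4-11, from 997 and 1153 to 2525 and 3114 in OCI-AML3, and from 87 and 428 to 3 and 11 in Kasumi-1. The actin covariate gave 0 in Kasumi-1 and 14 in Sig-M5 in place of 23. Over all genes it left 8 rises and 20 falls in Kasumi-1 and 622 and 1083 in Sig-M5. Fits of a line's own arrays alone gave 0 in Kasumi-1, 0 in OCI-M1 in place of 1, 1 in NOMO-1 in place of 2 and 15 in Sig-M5. Such fits called 0 of all genes in Kasumi-1. Their rises and falls over all genes were 46 and 17 in OCI-M1, 183 and 19 in NOMO-1 and 1340 and 2235 in Sig-M5. At an unadjusted p under 0.05 (limma), these settings left 7, 7 and 5 genes in Kasumi-1 (array weights, covariate, own arrays) and 1 in OCI-M1. With the replicate number as a block, 5 genes were called in NOMO-1 in place of 2, and the other counts stayed within 1.5 times. Over all genes, rises and falls in NOMO-1 went from 502 and 129 to 607 and 395. In Kasumi-1 they went from 87 and 428 to 721 and 1213 with the block. By the labels the samples share only a number. With each array left out in turn, the counts ran from 0 to 6 in Kasumi-1, 1 to 4 in KG-1a, 7 to 10 in MV-4-11, 1 to 2 in NOMO-1, 12 to 13 in OCI-AML3, 1 to 1 in OCI-M1, 17 to 23 in Sig-M5, 17 to 21 in the mean, 20 to 26 in the F test of responses, 49 to 62 for 1 line against the other 6, 35 to 35 for the vehicle F test and 484 to 511 for vehicle pairs. A group left with 1 array is assumed to vary like the others. The cause of these changes was not tested.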
